A study of Rattus norvegicus with 12 samples.

Results

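Bur-drilled bone was compared with uncut bone in the rat calvaria, the flat bone of the skull vault. The samples were chosen by their titles, 4 labelled bur and 4 labelled control, which together are 8 of the 12 arrays of the series. Of 45598 probes on the array design, 30057 were used, those that the scanner software marked as well above background on 4 or more arrays, and they stand for 22935 genes. Total RNA was taken 6 h after surgery from bone of animals 10 weeks old. In the bur group a rectangular defect of 8 by 3 mm was cut with a few strokes of a bur, a rotating cutting tool, fed at about 0.75 mm/s. In the control group the periosteum, the membrane that covers bone, was removed and the bone itself was left intact. The comparison asks how the bone left after drilling differed from bone that was exposed but not cut. The 4 other arrays hold bone cut with an Er:YAG laser in 3 strokes over a defect of the same size. Their values are given only where the 2 ways of cutting are compared and for probe position. They also entered the probe filter, the choice of probe per gene and the shared estimate of spread behind each adjusted p. Strain, sex and pooling are not stated in the labels, and nothing in them says that each animal gave only 1 sample, so the spread behind the p-values is that between samples and may be technical.

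Bone is built by osteoblasts, which secrete a collagen-rich matrix and mineralise it. Some osteoblasts become osteocytes, cells embedded in the mineral that sense load and damage and secrete sclerostin, the product of Sost, an inhibitor of Wnt signalling. Osteoclasts resorb bone, and the marrow spaces of the skull hold blood-forming, immune and fat cells. Injury to bone is followed within hours by bleeding, clotting and an inflammatory phase with interleukins and chemokines, and only later by growth of new bone.

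Each sample was measured on 1 one-colour array with probes of 60 bases. A value below is a level, the log2 processed signal of a probe minus the 75th percentile of its array, and a difference is the bur mean minus the control mean of such levels, with the standard error of the limma fit and n = 4 against 4 unless stated otherwise. Levels of different genes rest on different probes and cannot be set against each other. A gene is said to have risen or fallen where the Benjamini-Hochberg adjusted p of that fit, taken over all 22935 genes measured, is under 0.05. Bglap, Ibsp, Dmp1 and Col1a1, which mark bone, were well above background on all 8 arrays.

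The control arrays shared 1 slide, while the bur arrays lay in pairs on 2 other slides, bur 1 and 2 on one and bur 3 and 4 on the other. Group and slide thus cannot be told apart in this comparison. On each array 68.0% to 73.7% of the spots were marked so, and 0 spots were saturated. Spike-in spots, which are added RNAs that report on labelling and hybridisation, had a median log2 signal of 7.70 to 8.34 on bur arrays and 4.41 to 4.56 on control arrays. The median difference of all genes was 0.23 in favour of bur, and it was 0.69 in the dimmest of 5 equal groups of genes. With normexp background correction the median of all genes was -0.01, with median centring 0.05, with quantile normalization 0.11 and with a percentile over bright probes 0.15. Directions of gene groups were therefore looked at under each of these scalings and in the authors' deposited normalized table. The normexp setting added an offset of 50 to each signal, where the 75th percentile of the processed signal was 197 to 383. Such an offset draws differences between dim signals toward 0. A small normexp difference of a dim gene thus cannot decide whether the gene differed.

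Of the 22935 genes, 11706 (51%) passed the test, 7503 (32.7%) of them higher and 4203 (18.3%) lower in bur-drilled bone. Differences over 4-fold were found for 717 genes that rose and 577 that fell. The 4 bur and the 4 control arrays did not overlap for 10552 genes (46%). The share of calls that were higher was 64.1%, and it was 54.6% with quantile normalization, 57.0% with the percentile over bright probes, 51.4% with median centring, 51.5% with normexp and 54.1% in the deposited table. With so many genes past the threshold, a count of genes in a group below is read against 32.7% higher and 18.3% lower. The count was 8967 when slide entered as a random block, called the slide block below. With only the bur arrays of the first treated slide set against the controls 10923 passed, and with only those of the second 7352. These 2 settings are called slide 1 and slide 2. Counts of list members that moved by over 1.5 times, and by at least 2 genes, under one of these 3 settings or another scaling stand in parentheses. Where a gene was well above background on only some arrays of a group, that number is given, and its difference rests in part on values at background.

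**Figure D1:**
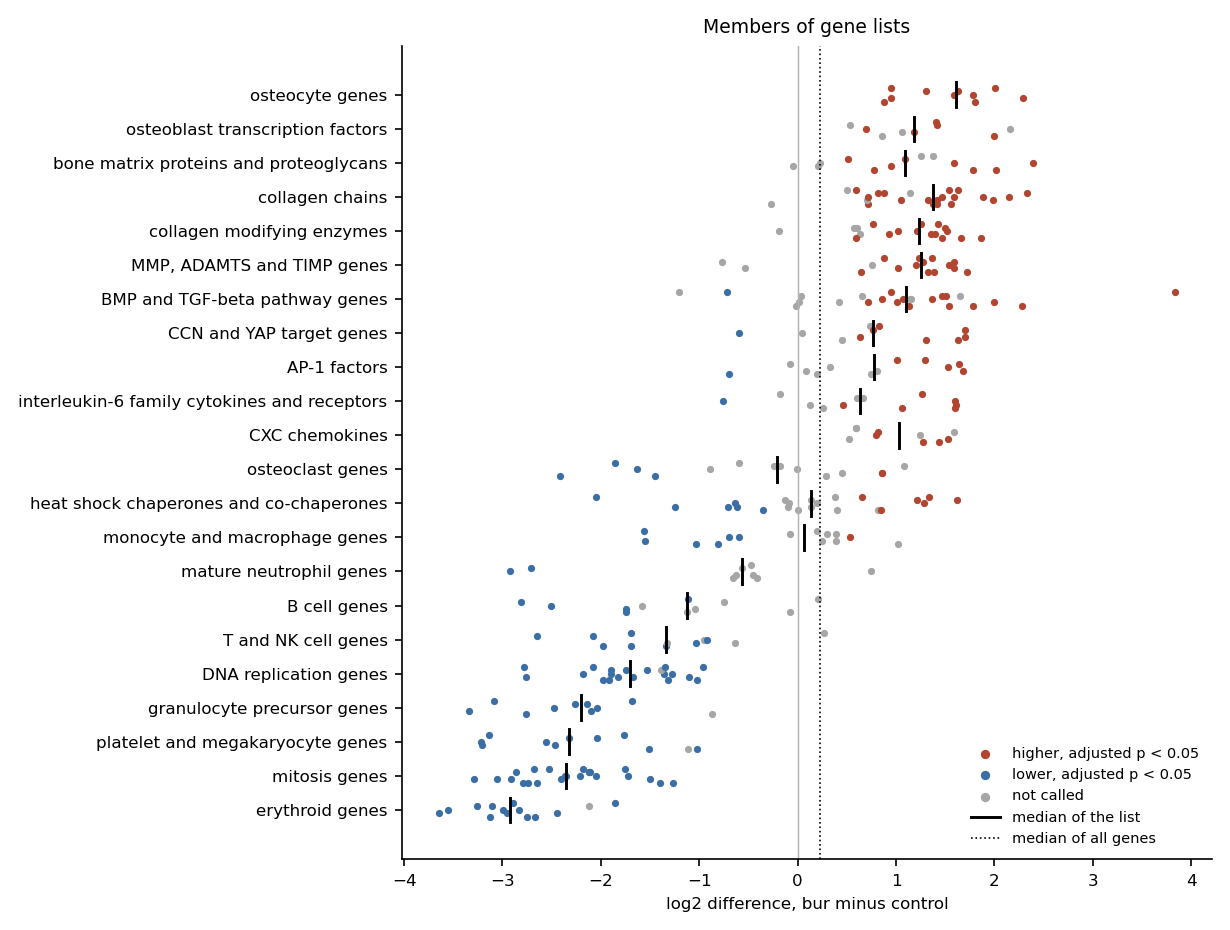
Log2 difference between bur and control of each measured member of 22 gene lists (1 point per gene, red higher and blue lower at an adjusted p under 0.05, grey not called), with the median of each list (black bar) and of all genes (dotted line). Osteocyte genes lie at a median of 1.61 and collagen chains at 1.37, while erythroid genes lie at -2.92 and mitosis genes at -2.36.

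Genes of osteocytes were higher in bur-drilled bone. Of 10 measured osteocyte genes 10 rose, with a median difference of 1.61, and 9 to 10 rose under the 5 other scalings. In a bulk sample a larger share of a cell type and more RNA per cell cannot be told apart. Pdpn, which encodes the podoplanin of early osteocytes and their dendrites, read 5.54, 4.87, 4.66 and 5.31 on bur arrays 1 to 4 and 3.56, 2.67, 2.98 and 3.14 on control arrays 1 to 4. Every bur array was above every control array, and the difference was 2.01 ± 0.27, a 4.02-fold higher signal (adjusted p = 0.000351). Slc13a5, a citrate transporter of mineralising cells, rose by 2.29 ± 0.26, the largest difference of the list. Mepe, a matrix phosphoglycoprotein of osteocytes, rose by 1.59 ± 0.19, and Phex, the endopeptidase mutated in X-linked hypophosphataemia, by 1.30 ± 0.29. Dmp1, which binds mineral and regulates phosphate handling, read 4.58, 4.11, 4.0 and 4.20 on the bur arrays and 3.47, 2.93, 3.23 and 3.45 on the control arrays, a difference of 0.95 ± 0.25 (adjusted p = 0.01). Fbln7, an extracellular matrix glycoprotein, rose by 1.78 ± 0.17.

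Sost was the member of the osteocyte list with the smallest difference. Its probe was the only 1 kept for the gene and lay on chromosome 10 from base 91026551 to 91026610 of RGSCv3.4, on the minus strand, starting at base 154 of the transcript. The probe is shown because the whole measurement of Sost rests on it, in lower case throughout since no part of it is singled out.
Sost probe: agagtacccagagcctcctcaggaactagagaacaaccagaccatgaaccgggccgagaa
Its levels were -0.76, -2.03, -1.69 and -2.01 on bur arrays 1 to 4 and -1.94, -3.08, -2.41 and -2.57 on control arrays 1 to 4. Bur arrays 1 and 3 stood above all control arrays, whereas bur arrays 2 and 4 lay just below control array 1, so the groups overlapped. The difference of 0.88 ± 0.30 passed the limma test (adjusted p = 0.031), while the exact two-sided permutation test over the 70 assignments of 8 arrays gave p = 0.0857, where 0.0286 is the smallest it can give. The call was lost without bur array 1, at 0.59 (adjusted p = 0.0693), and without control array 2, 3 or 4, at 0.69, 0.91 and 0.86 (adjusted p = 0.0894, 0.0524 and 0.0634). With slide as a random block the adjusted p was 0.0771, and with normexp background correction it was 0.36 (adjusted p = 0.125). In the authors' deposited table the log2 fold change of Sost was 0.62 (adjusted p = 0.0106). Dkk1, another secreted Wnt antagonist of bone cells, read 2.45, 2.22, 1.90 and 2.44 on the bur arrays and 1.02, 0.81, 1.12 and 1.30 on the control arrays and rose by 1.19 ± 0.18 with no overlap (adjusted p = 0.000589).

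**Figure D2:**
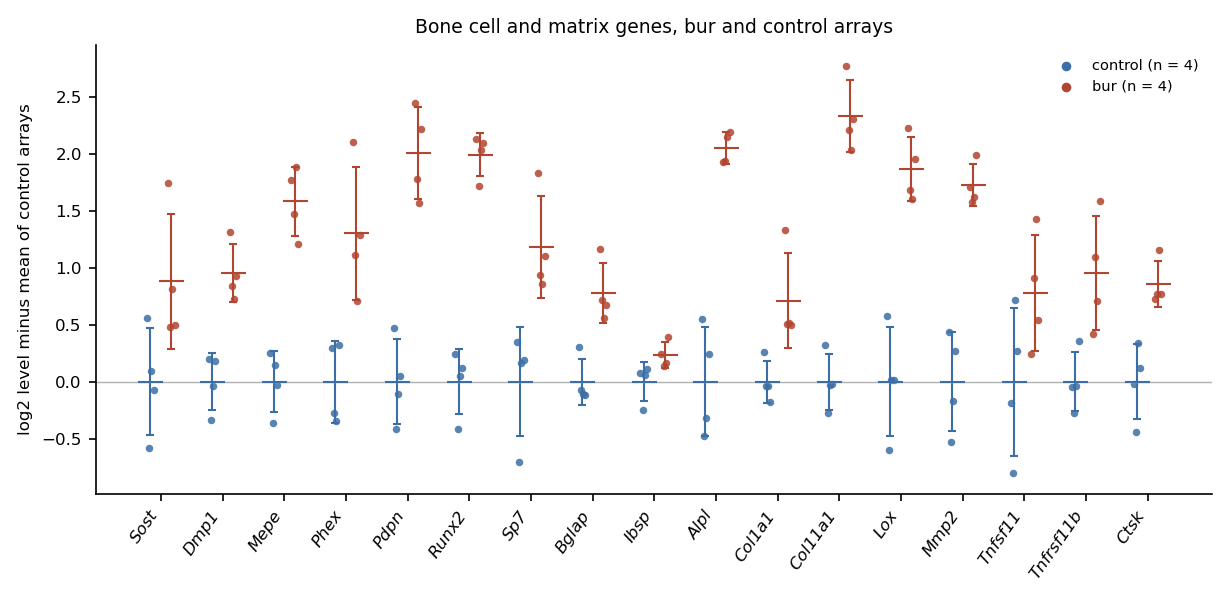
Log2 level of 17 bone genes on each of the 4 control (blue) and 4 bur (red) arrays, as the difference from the mean of the control arrays of the same gene, with mean and SD. For Pdpn, Runx2, Alpl and Col11a1 the 4 bur arrays sit well above the 4 control arrays, while for Sost, Ibsp and Tnfsf11 they sit close to or among them.

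Osteoblast transcription factors rose in part. Runx2, the factor that commits cells to the osteoblast lineage, read 2.96, 2.55, 2.86 and 2.93 on bur arrays 1 to 4 and 1.07, 0.42, 0.88 and 0.95 on control arrays 1 to 4, a difference of 2.00 ± 0.17 (adjusted p = 0.000131). The lowest bur array was far above the highest control array. Of 9 such factors 5 rose, and 4 to 6 did so under the 5 other scalings. Sp7, or osterix, which acts after Runx2, rose by 1.18 ± 0.29 and Dlx5 by 1.41 ± 0.26. Dlx3, a homeobox gene of the osteoblast lineage, had the largest difference of the list, 2.15 ± 0.88, but did not pass (adjusted p = 0.0612). Bur array 1 read 8.40 and bur arrays 2, 3 and 4 between 5.32 and 5.81. Twist1, a factor of undifferentiated mesenchyme, differed by 0.53 ± 0.22 (adjusted p = 0.0665).

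Of 13 bone matrix proteins and proteoglycans 8 rose and 0 fell (or 3 higher with slide 2, 5 higher with the slide block or slide 1), between 4 and 8 rose under the other scalings, and 5 rose without control array 2 or without control array 3. Omd, the keratan sulphate proteoglycan osteomodulin of mineralised tissue, read 7.59, 7.29, 7.10 and 7.51 on the bur arrays and 5.15, 4.64, 4.98 and 5.13 on the control arrays, a rise of 2.40 ± 0.17 (adjusted p = 0.000101). Bgn, the small proteoglycan biglycan, rose by 2.02 ± 0.23. Bglap, which encodes osteocalcin, the classical product of mature osteoblasts, rose less, by 0.78 ± 0.15 (adjusted p = 0.00222). Ibsp, bone sialoprotein, read 4.75, 4.64, 4.67 and 4.90 on the bur arrays and 4.59, 4.26, 4.57 and 4.62 on the control arrays, and its difference of 0.23 ± 0.17 did not pass (adjusted p = 0.268). Spp1, osteopontin, differed by 0.21 ± 0.25 and Lum, the collagen-binding lumican, by -0.04 ± 0.28, both with overlapping arrays and adjusted p of 0.493 and 0.9.

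Enzymes of mineralisation showed the same direction, with 6 of 8 members higher and 4 to 5 under the other scalings. Alpl, the tissue-nonspecific alkaline phosphatase that frees phosphate for mineral, read 3.32, 3.33, 3.54 and 3.58 on the bur arrays and 1.94, 0.92, 1.07 and 1.64 on the control arrays and rose by 2.05 ± 0.22 (adjusted p = 0.000175). A second probe of Alpl, nearer the 5′ end of the transcript, differed by 0.46 (adjusted p = 0.178). Enpp1, which makes the mineralisation inhibitor pyrophosphate, rose by 0.98 ± 0.14, Phospho1, a phosphatase of matrix vesicles, by 0.94 ± 0.32, and Ggcx, the carboxylase that modifies osteocalcin, by 1.38 ± 0.19. Slc20a1, a phosphate importer, differed by -0.11 ± 0.14 (adjusted p = 0.542). The call of Phospho1 was lost without bur array 1 or control array 2 or 3 (adjusted p = 0.0762 to 0.086).

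Collagen chains and the enzymes that process them rose widely. Of 23 collagen chains 19 rose and 0 fell, with a median of 1.37, and 15 to 20 rose under the other scalings. Col11a1, a fibril-nucleating chain, read 6.14, 5.57, 5.40 and 5.68 on bur arrays 1 to 4 and 3.69, 3.09, 3.34 and 3.35 on control arrays 1 to 4, a difference of 2.33 ± 0.22 or 5.04-fold (adjusted p = 0.000131). Col24a1, a fibrillar chain of developing bone, rose by 1.99 ± 0.24, and Col2a1, the main chain of cartilage, by 1.89 ± 0.22. Col1a1, the main chain of bone, rose by 0.71 ± 0.19, which is 1.64-fold, but by 0.27 (adjusted p = 0.1) with quantile normalization. Col3a1, abundant in soft connective tissue, differed by 1.14 ± 0.46 without passing (adjusted p = 0.0578), and control array 2 read 4.22 and the other control arrays between 5.87 and 6.32. Col4a2, a basement membrane chain, differed by -0.27 ± 0.25 (adjusted p = 0.37).

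Among 18 collagen modifying enzymes 14 rose. Lox, the lysyl oxidase that cross-links collagen, read 6.76, 6.22, 6.14 and 6.50 on the bur arrays and 5.11, 3.94, 4.56 and 4.55 on the control arrays and rose by 1.87 ± 0.25. Pcolce, which speeds the trimming of procollagen, rose by 1.66 ± 0.19, P4ha1, a prolyl hydroxylase, by 1.46 ± 0.20, and Serpinh1, the collagen chaperone, by 1.35 ± 0.22. P4ha3 differed by -0.19 ± 0.46 (adjusted p = 0.739). Of 16 matrix proteases and their inhibitors 13 rose and 0 fell (or 8 higher with slide 2). Mmp2, a gelatinase, read 7.31, 7.18, 7.23 and 7.59 on the bur arrays and 6.03, 5.07, 5.43 and 5.87 on the control arrays and rose by 1.73 ± 0.21 (adjusted p = 0.000238). Timp1, an inhibitor of such proteases, rose by 1.28 ± 0.23, Mmp16 by 1.39 ± 0.20, Mmp23 by 1.53 ± 0.24 and Adamts4, an aggrecanase, by 1.59 ± 0.25. Mmp13, the collagenase of hypertrophic cartilage and osteoblasts, was not called, with a difference of -0.77 ± 0.48 (adjusted p = 0.2).

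The loose matrix of early wounds was represented by 15 genes of hyaluronan and provisional matrix, of which 8 rose (or 4 higher with the slide block or slide 2), between 4 and 8 under the other scalings and 5 without control array 2. Has1, a hyaluronan synthase, read 1.95, 1.20, 0.72 and 1.65 on the bur arrays and -0.28, -1.19, -1.06 and -0.43 on the control arrays and rose by 2.12 ± 0.42 (adjusted p = 0.00222). Has2, the synthase most used by mesenchymal cells, was well above background on 4 bur arrays and 0 control arrays and was at least 2.14-fold higher (adjusted p = 0.0266). Such a bound sets the bur mean against a raised control mean. For it, a control array below its own lowest signal that counted as well above background was raised to that signal. With normexp correction Has2 differed by 0.04 (adjusted p = 0.84), and its call was also lost without bur array 1 or 2 or control array 2 (adjusted p = 0.0565 to 0.0742). Hyal2, a hyaluronidase, rose by 1.09 ± 0.21 and Sdc1, the heparan sulphate proteoglycan syndecan 1, by 0.99 ± 0.24. Has3, Tnc, the tenascin of healing tissue, and Thbs1, a platelet and matrix glycoprotein, differed by 0.10, 0.28 and 0.37 with adjusted p of 0.391, 0.398 and 0.3. Another probe of Thbs1 was called higher.

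Genes of the periosteum and mesenchymal progenitors were mixed, 6 of 13 higher and 2 lower (or 0 lower with slide 2). Acta2, smooth muscle actin, rose by 2.43 ± 0.54 and Prrx1, a transcription factor of limb and skull mesenchyme, by 1.60 ± 0.26. Pdgfra, a receptor of mesenchymal progenitors, rose by 1.11 ± 0.21. Cxcl12, the chemokine that retains blood-forming cells near stromal cells, read 3.90, 3.86, 5.70 and 3.88 on the bur arrays and 6.02, 6.04, 6.13 and 6.15 on the control arrays, a difference of -1.75 ± 0.47 (adjusted p = 0.0105), with bur array 3 close to the controls. Postn, periostin, differed by 1.89 ± 0.83 with overlapping arrays (adjusted p = 0.077), and control array 2 read -0.46 against 2.32 to 3.31 on the other controls.

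Osteoclast genes did not move as one. Of 14 measured members 2 rose and 4 fell (or 0 lower with slide 2, 2 lower with the slide block), and the median was -0.21. The falls numbered 2 without bur array 1, bur array 2 or control array 2. Ctsk, the collagen-degrading cathepsin K, rose by 0.86 ± 0.17 and Nfatc1, the factor that drives osteoclast formation, by 0.85 ± 0.16. Car2, carbonic anhydrase, which supplies acid for resorption and is also abundant in red cells, fell by 2.42 (SE 0.79), and Itgb3, an integrin chain shared by osteoclasts and platelets, fell by 1.86 (SE 0.43). The call of Car2 was lost without bur array 1, 2 or 4 or control array 2 or 4 (adjusted p = 0.052 to 0.0674). Acp5, tartrate-resistant acid phosphatase, Calcr, the calcitonin receptor, and Dcstamp, needed for cell fusion, were not called, at 0.28, -0.89 and 1.08 with adjusted p of 0.461, 0.248 and 0.0568. Dcstamp was well above background on 3 bur arrays and 1 control array. Tnfsf11, which encodes RANKL, the cytokine that drives osteoclast formation, read -4.13, -3.47, -2.94 and -3.83 on bur arrays 1 to 4 and -4.56, -5.18, -3.66 and -4.10 on control arrays 1 to 4. It was well above background on 2 of 4 control arrays and its difference of 0.78 ± 0.38 did not pass (adjusted p = 0.102). Tnfrsf11b, which encodes the decoy receptor OPG, read 1.51, 2.19, 1.80 and 2.67 on the bur arrays and 1.04, 0.81, 1.05 and 1.44 on the control arrays and rose by 0.95 ± 0.34 (adjusted p = 0.0376), a call that was lost without bur array 2 or 4 or control array 1, 2 or 3 (adjusted p = 0.069 to 0.102). Of the 6 genes of this axis 2 rose and 0 fell (or 0 higher with normexp, the deposited table, the slide block or slide 2), and 0 rose without bur array 2 or 4 or control array 1 or 3. Csf1 differed by 0.17 ± 0.21 and Il34 by 1.09 ± 0.50, neither past the threshold (adjusted p = 0.492 and 0.0849). A further probe of Csf1 was called higher. Csf2, for which 3 bur arrays and 0 control arrays were well above background, was at least 1.68-fold higher (adjusted p = 0.0336), but its difference was -0.024 with normexp correction and the call was lost without bur array 1, 2 or 4 or control array 1, 3 or 4 (adjusted p = 0.064 to 0.0863).

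Of the Wnt pathway, secreted antagonists were called higher in 40%, near the 32.7% of all genes, and target genes in 60%. Of 10 secreted antagonists 4 rose and 0 fell (or 1 higher with slide 2), and 2 to 4 rose under the other scalings. Frzb, a decoy for Wnt ligands, rose by 1.23 ± 0.33, and Sfrp5 was at least 2.25-fold higher, with 0.06 (adjusted p = 0.796) under normexp correction, while Sfrp4 and Wif1 differed by 0.86 and 0.21 (adjusted p = 0.0935 and 0.468). For Sfrp4 a further probe was called higher. Of 10 Wnt target genes 6 rose and 1 fell (or 3 higher with slide 1). Ccn4, also called Wisp1, rose by 1.70 ± 0.29, Nkd2 by 0.96 ± 0.20 and Ccnd1, cyclin D1, by 0.94 ± 0.24. Axin2, a feedback inhibitor often used as a readout of the pathway, read -2.41, -2.38, -2.54 and -2.55 on the bur arrays and -2.62, -2.94, -2.56 and -3.03 on the control arrays, a difference of 0.32 ± 0.17 that did not pass (adjusted p = 0.146). Lef1, a transcription factor of the pathway that lymphoid precursors also express, was the member that fell, by 1.84 (SE 0.42), and bur array 3 again read nearest to the controls (-0.68 against -2.43 to -2.18 on the other bur arrays).

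Of 24 BMP and TGF-beta pathway genes 14 rose and 1 fell. Bmp7, a bone-inducing ligand, rose by 2.28 ± 0.23 (adjusted p = 0.000153), Bmp3, a ligand that opposes it, by 1.99 ± 0.25, and Bmp2, needed for fracture repair, by 1.13 ± 0.26. Bmp6 differed by -1.20 ± 0.57 with overlapping arrays (adjusted p = 0.099). The direct targets Id1 and Smad7, an inhibitory Smad, rose by 1.37 ± 0.24 and 1.07 ± 0.16. Id3, well above background on 1 of 4 control arrays, rose by 3.84 ± 1.25 and read 0.73, 1.23, -2.95 and -1.82 on the bur arrays and -3.25, -5.01, -5.18 and -4.73 on the control arrays. Bur arrays 1 and 2 stood far above bur arrays 3 and 4 for this probe, and all 4 stood above the controls (adjusted p = 0.0255). The call of Id3 was lost without bur array 1 or 2 or control array 2, 3 or 4 (adjusted p = 0.0516 to 0.0721) and with normexp correction, at 1.57 (adjusted p = 0.142). Inhba, an activin chain, differed by 1.14 ± 0.45 (adjusted p = 0.0558), although a further probe of the gene was called higher.

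Among other growth factor systems, 8 of 14 FGF, PDGF, HGF and neurotrophin genes rose and 1 fell (or 5 higher with median centring, the slide block, slide 1 or slide 2). Fgf1 read 0.99, 1.38, 0.47 and 1.11 on the bur arrays and -0.52, -0.66, -0.91 and -0.80 on the control arrays and rose by 1.71 ± 0.21, Fgf2 by 0.79 ± 0.24, and the receptors Fgfr1 and Fgfr2 by 1.72 ± 0.23 and 1.39 ± 0.19, whereas Fgfr3, the receptor that restrains cartilage growth, fell by 0.99 (SE 0.22). Of 10 EGF family genes 4 rose (or 2 higher with normexp), Erbb2 by 1.20 ± 0.21 and Egfr by 1.14 ± 0.31, and Epgn, well above background on 3 bur and 0 control arrays, was at least 1.92-fold higher, although it was -0.029 with normexp correction. The injury-induced ligands Hbegf and Areg differed by 0.32 and -0.60 (adjusted p = 0.196 and 0.252). Ereg, another ligand, was well above background on 2 bur and 0 control arrays and did not pass (adjusted p = 0.0909).

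Of 11 IGF genes 6 rose and 1 fell. Igfbp7 rose by 3.14 ± 0.90 and Igfbp5, the binding protein stored in bone matrix, by 1.41 ± 0.33. Igfbp3 rose by 0.70 ± 0.22 and Igf2r by 1.01 ± 0.16, while Igf1 differed by 0.88 ± 0.55 without passing (adjusted p = 0.2). Among the 5 probes kept for Igf1, 1 other was called higher. Igfbp2 fell by 1.95 (SE 0.66), although control array 3 (2.45) lay within the range of the bur arrays. Its call was lost without bur array 1 or 3 or control array 1, 2 or 4 (adjusted p = 0.059 to 0.0759). With median centring Igfbp3 differed by 0.52 (adjusted p = 0.106). Of 14 VEGF and angiopoietin genes 7 rose and 2 fell (or 3 higher with slide 1, 4 higher with median centring, the slide block or slide 2), and 4 rose without control array 2. Vegfa, the main signal for vessel growth, read 3.16, 2.77, 2.98 and 3.11 on the bur arrays and 2.18, 2.05, 2.55 and 2.74 on the control arrays and rose by 0.63 ± 0.20 (adjusted p = 0.0217), a call that was lost without bur array 1 or 4 or control array 1 or 2 (adjusted p = 0.0505 to 0.0646) and with median centring, at 0.45 (adjusted p = 0.144). Angptl4, a target of hypoxia and lipid sensing, rose by 1.62 ± 0.20, Pgf by 1.08 ± 0.21 and Nrp2 by 1.13 ± 0.19. Angpt1, which stabilises vessels, fell by 0.97 (SE 0.19), and Angpt2 differed by 0.29 (adjusted p = 0.254). In the deposited table Angpt1, read from another probe, differed by -0.21 (adjusted p = 0.463).

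Of 11 CCN and YAP target genes, which respond to mechanical tension, 7 rose and 1 fell. Ccn1 read 3.01, 3.18, 3.55 and 3.71 on bur arrays 1 to 4 and 1.39, 0.85, 2.15 and 2.54 on control arrays 1 to 4, a rise of 1.63 ± 0.33 (adjusted p = 0.00245). Ccn2, connective tissue growth factor, rose by 1.70 ± 0.35 and Amotl2 by 1.30 ± 0.16, and the receptor kinase Axl fell by 0.59 (SE 0.13). Among 11 thermo- and mechanosensitive channels 6 rose and 0 fell. Trpm8, a cold-sensing channel, rose by 2.63 ± 0.50, Trpv4 by 1.17 ± 0.25 and Piezo1, a stretch-activated channel, by 0.47 ± 0.14, or 0.29 (adjusted p = 0.226) with median centring. Purinergic genes, which sense ATP and adenosine from damaged cells, split into 4 higher and 4 lower of 11, the same under the 5 other scalings, with 2 lower under the slide block and slide 2. Adora3, an adenosine receptor of mast cells and myeloid cells, read 2.26, 0.67, -1.19 and -0.54 on the bur arrays and -2.79, -3.96, -3.41 and -3.11 on the control arrays and rose by 3.62 ± 0.75 (adjusted p = 0.00284), Entpd3, an ectonucleotidase, rose by 1.91 ± 0.34, P2ry1, a platelet ADP receptor, fell by 2.31 (SE 0.37), and P2rx4 fell by 1.25 (SE 0.15). Notch genes gave 4 higher and 1 lower of 13, near the share of all genes, and 1 rose with normexp correction. Among them Heyl and Hey2 (well above background on 3 bur and 0 control arrays) were at least 2.05-fold and 1.26-fold higher, Jag2 rose by 1.25 ± 0.27 and Notch1 fell by 0.66 (SE 0.18), but with normexp correction Heyl differed by 0.02 (adjusted p = 0.902) and Hey2 by -0.051.

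Genes of the immediate response to stimuli rose in shares near or somewhat above that of all genes. The shares were 41.7% of AP-1 factors, 43.8% of Egr, Nr4a, Klf and Ier genes and 35.7% of ERK feedback genes, against 32.7%. Of 12 AP-1 factors 5 rose and 1 fell, and 5 rose under the other scalings. Fos, the prototype early gene, read -0.34, -0.73, -0.08 and -1.31 on bur arrays 1 to 4 and -1.92, -1.81, -0.76 and -0.97 on control arrays 1 to 4, with overlap, and its difference of 0.75 ± 0.36 did not pass (adjusted p = 0.1). The later members Fosl1 and Fosl2 rose by 1.53 ± 0.32 and 1.64 ± 0.31, Maff by 1.68 ± 0.20 and Jun by 1.01 ± 0.18, each with no overlap. Junb, whose call was lost without bur array 1 or 2 or control array 3 or 4 (adjusted p = 0.057 to 0.0916), fell by 0.70 (SE 0.24), and Atf3, a stress-induced factor, differed by 0.33 ± 0.40 (adjusted p = 0.496).

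Of 16 Egr, Nr4a, Klf and Ier genes 7 rose and 1 fell. Egr1 rose by 0.58 ± 0.21 with arrays that overlapped (adjusted p = 0.037), a call that was lost without bur array 1, 2 or 3 or control array 1, 2 or 4 (adjusted p = 0.0558 to 0.106) and with median centring, at 0.40 (adjusted p = 0.179). Egr2 rose by 1.92 ± 0.39 and Klf4 by 0.98 ± 0.14. Egr3 was well above background on 4 bur and 0 control arrays and at least 2.17-fold higher (adjusted p = 0.000291), with 0.13 (adjusted p = 0.495) under normexp correction. Nr4a1 differed by 0.25 ± 0.18 (adjusted p = 0.259). Feedback genes of ERK signalling gave 5 higher and 1 lower of 14 (or 2 higher with normexp or slide 2, 3 higher with the bright-probe percentile, the slide block or slide 1, 3 lower with median centring), and 3 higher without bur array 1 or without control array 2. Spry4 rose by 1.07 ± 0.16 and Dusp16 by 0.80 ± 0.14, Dusp6 differed by 0.43 ± 0.21 (adjusted p = 0.0989), and Dusp2, a phosphatase of activated lymphoid cells, fell by 2.14 (SE 0.52) and was well above background on 3 of 4 bur arrays.

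**Figure D3:**
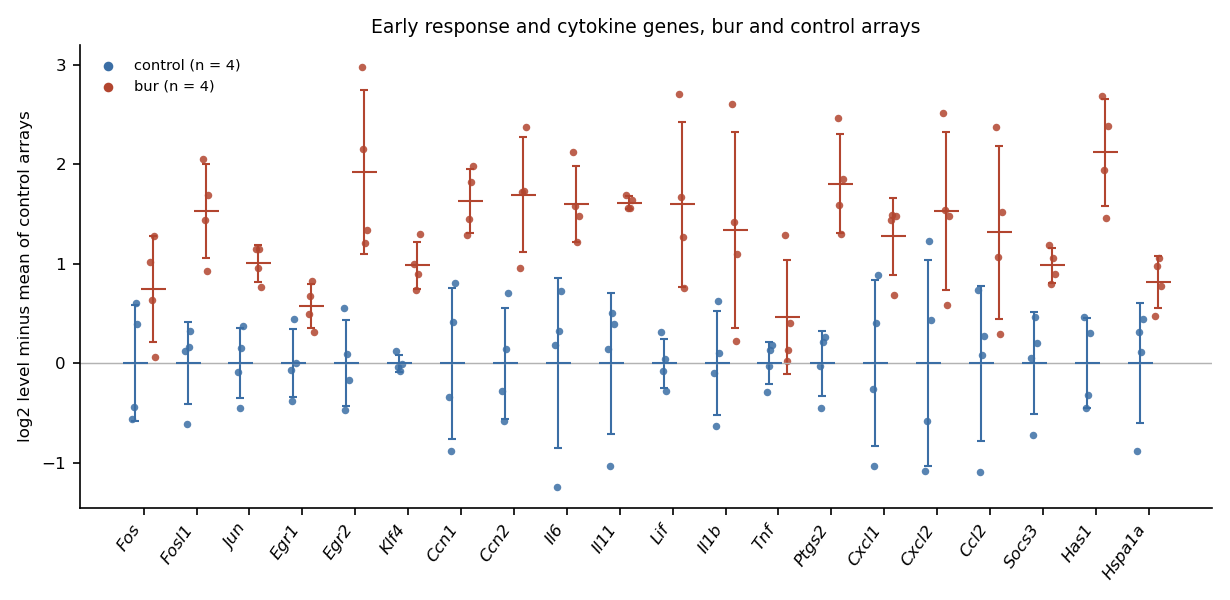
Log2 level of 20 early response, cytokine and wound genes on each of the 4 control (blue) and 4 bur (red) arrays, as the difference from the mean of the control arrays of the same gene, with mean and SD. Il11 has a narrow spread on the bur arrays around a difference of 1.61, while for Il1b, Cxcl2 and Ccl2 bur array 1 stands highest and the groups overlap.

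Of 12 genes of interleukin-6 family cytokines and their receptors 6 rose and 1 fell. Il6 itself, an early mediator of inflammation and bone repair, read 0.33, -0.20, -0.57 and -0.31 on bur arrays 1 to 4 and -1.60, -3.03, -1.46 and -1.06 on control arrays 1 to 4. The groups did not overlap, and the difference was 1.60 ± 0.47 (adjusted p = 0.0156). Il11, which acts on osteoblast and osteoclast precursors, read -1.94, -2.08, -2.07 and -1.99 on the bur arrays and -3.50, -4.67, -3.13 and -3.24 on the control arrays and rose by 1.61 ± 0.30 (adjusted p = 0.0018), with 3 of 4 control arrays well above background. Lif rose by 1.60 ± 0.37, and the receptor genes Lifr and Osmr by 1.26 ± 0.16 and 1.06 ± 0.23, Osmr with 2 of 4 control arrays well above background. With normexp correction Lif differed by 0.49 (adjusted p = 0.102) and Osmr by 0.05 (adjusted p = 0.704). Il6r, expressed mainly by leukocytes and hepatocytes, fell by 0.76 (SE 0.20). Of 8 SOCS genes, feedback inhibitors of such cytokines, 5 rose and 1 fell (or 3 higher with median centring, normexp or the deposited table). Socs3 rose by 0.99 ± 0.23, Cish by 1.14 ± 0.20 and Socs2 by 0.94 ± 0.14, and Socs7 fell by 0.57 (SE 0.12).

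Genes of interleukin-1 and TNF gave 3 higher and 1 lower of 13, below the share of all genes. Il1b, a product of activated macrophages and neutrophils, read 5.44, 4.26, 3.07 and 3.94 on the bur arrays and 2.74, 2.20, 3.47 and 2.94 on the control arrays. Bur array 1 was the highest and bur array 3 lay below control array 3, and the difference of 1.34 ± 0.47 passed narrowly (adjusted p = 0.0355), and it did not without bur array 1, 2 or 4 or control array 1, 2 or 4 (adjusted p = 0.0519 to 0.0968). Tnf and Il1rn, the interleukin-1 receptor antagonist, differed by 0.46 and 0.70 (adjusted p = 0.219 and 0.157). The receptors Il1r1 and Tnfrsf1a rose by 1.77 ± 0.38 and 1.37 ± 0.18, and Il33, an alarmin of stromal and endothelial nuclei, fell by 0.83 (SE 0.21). Ptgs2, the inducible cyclooxygenase, read 2.58, 1.71, 1.42 and 1.97 on the bur arrays and 0.08, -0.33, 0.33 and 0.38 on the control arrays and rose by 1.80 ± 0.34 (adjusted p = 0.00186). Ptgs1, the constitutive enzyme that platelets and macrophages carry, fell by 1.64 (SE 0.28), and Ptgis, prostacyclin synthase, rose by 1.79 ± 0.24. Ptges differed by 1.27 ± 0.52 (adjusted p = 0.0617), and over the 13 prostaglandin genes 2 rose and 2 fell (or 4 lower with the deposited table).

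Of 10 CXC chemokines 5 rose and 0 fell (or 2 higher with the slide block or slide 2, 3 higher with median centring), and the count ranged from 2 to 8 as bur or control arrays were left out in turn, reaching 8 without bur array 3, 2 without bur array 1 or control array 1, and 3 without bur array 2 or control array 2. Cxcl1, which attracts neutrophils, read 3.04, 3.09, 2.29 and 3.09 on the bur arrays and 1.34, 0.56, 2.01 and 2.49 on the control arrays and rose by 1.27 ± 0.42 with 1 control array inside the bur range (adjusted p = 0.0268). Its call was lost without bur array 1, 2 or 4 or control array 1 or 2 (adjusted p = 0.0589 to 0.0732). Cxcl2, with the same role, rose by 1.53 ± 0.50 with overlap, a call lost without bur array 1 or 2 or control array 1 or 2 (adjusted p = 0.0512 to 0.071). Cxcl14 rose by 0.79 ± 0.18 and Cxcl16 by 0.82 ± 0.15, both without overlap. Of 16 CC chemokines 3 rose and 1 fell (or 1 higher with quantile normalization or the slide block, 7 higher with slide 1), and 6 rose without bur array 3 or control array 3 and 1 without control array 2. Ccl2, the monocyte attractant, read 6.28, 4.98, 4.20 and 5.43 on the bur arrays and 4.64, 2.81, 3.99 and 4.18 on the control arrays, a difference of 1.32 ± 0.58 that did not pass (adjusted p = 0.0795). Ccl22, a chemokine of dendritic cells, rose by 2.23 ± 0.64 and Ccl3 by 1.20 ± 0.39, the latter not without bur array 1 or control array 1 or 2 (adjusted p = 0.0683 to 0.0713), while Ccl7 and Ccl20 differed by 0.80 and 1.27 (adjusted p = 0.344 and 0.2).

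NF-kB, complement and interferon lists held fewer calls than the 51% of all genes. Of 15 NF-kB genes 1 rose and 2 fell (or 0 lower with the slide block, 4 lower with the bright-probe percentile or normexp, 5 lower with median centring), or 4 without bur array 3, and Nfkbia, a feedback inhibitor, differed by 0.57 ± 0.23 (adjusted p = 0.0569). Bcl3 rose by 1.12 ± 0.18 and Nfkb2 fell by 0.68 (SE 0.24), a call lost without bur array 2 or 4 or control array 2 or 4 (adjusted p = 0.0533 to 0.0946). Of 19 complement genes 4 rose and 3 fell (or 2 higher with the bright-probe percentile, median centring or slide 1, 0 lower with slide 2, 5 lower with quantile normalization or the deposited table), with 2 higher without bur array 4, control array 3 or control array 4 and 1 lower without the last. C3, the central component of the cascade, fell by 1.30 (SE 0.31). Of 18 interferon-stimulated genes 1 rose and 3 fell (or 1 lower with the slide block or slide 2), or 1 without bur array 1, bur array 2 or control array 2, with falls of 2.37 for Rsad2 and 1.48 for Bst2 and a difference of 0.49 for Isg15 (adjusted p = 0.118). The call of Rsad2 was lost without bur array 1, 2 or 4 or control array 2 (adjusted p = 0.0521 to 0.0644). Among 13 endothelial and adhesion genes 2 rose and 4 fell (or 2 lower with the slide block or slide 2), and the falls numbered 2 without any 1 of bur arrays 1 and 4 and control arrays 1, 3 and 4, while the rises numbered 4 without bur array 2 or control array 1. Pecam1 rose by 0.69 ± 0.20, with Tie1, well above background on 3 of 4 bur arrays, and Icam2 falling by 1.95 and 1.43. Sele, the selectin of inflamed endothelium, fell by 0.78 at the edge of the threshold (adjusted p = 0.0499) and not without bur array 1, 2 or 4, control array 1, 3 or 4 or laser array 1 or 2 (adjusted p = 0.0566 to 0.131), and Icam1, another such adhesion molecule, differed by 0.66 (adjusted p = 0.0508). Of 13 plasminogen and coagulation genes 2 rose and 2 fell. Plaur, the urokinase receptor, differed by 0.89 ± 0.35 (adjusted p = 0.0514), Thbd rose by 1.08 ± 0.21, and Serpinb2 and F13a1, both of monocytes and macrophages, fell by 2.34 and 1.74.

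Stress responses were divided within each list. Of 22 heat shock genes 6 rose and 6 fell (or 3 higher with median centring). Hspa1a, the main inducible Hsp70, read 1.0, 1.5, 1.58 and 1.31 on the bur arrays and -0.35, 0.84, 0.64 and 0.97 on the control arrays, with each bur array above the highest control array, bur array 1 by a narrow margin, and its difference of 0.82 ± 0.39 did not pass (adjusted p = 0.0988). Cryab, a small heat shock protein, rose by 1.34 ± 0.26, Hspa4l by 1.62 ± 0.32 and Hspb1, with overlap, by 1.29 ± 0.45, the last not without bur array 2 or 4 or control array 1, 2 or 3 (adjusted p = 0.0503 to 0.086), while Dnaja4 and Hspa2 fell by 2.05 and 1.25. In the unfolded protein and integrated stress response 4 of 15 genes rose and 5 fell (or 2 higher with the slide block or slide 1), and 2 rose under 4 of the 5 other scalings and without any 1 of bur arrays 3 and 4 and control arrays 1, 2 and 3. Hspa5 and Ddit3, its usual reporters, differed by -0.15 and 0.32 (adjusted p = 0.411 and 0.237), Xbp1 rose by 0.67 ± 0.14, and Asns, asparagine synthetase, fell by 1.44 (SE 0.30). The metallothioneins Mt1 and Mt2A, which bind zinc and rise with glucocorticoids and cytokines, rose by 1.22 ± 0.24 and 1.07 ± 0.21, whereas Hmox1, haem oxygenase, fell by 1.02 (SE 0.21), within a list of 11 in which 3 rose and 2 fell. Cdkn1a, the p21 inhibitor of the cell cycle, read 3.65, 2.80, 2.99 and 3.17 on the bur arrays and 1.72, 1.21, 2.02 and 1.89 on the control arrays and rose by 1.44 ± 0.25 (adjusted p = 0.00129), and Gadd45g and Gadd45b rose by 1.70 ± 0.28 and 0.97 ± 0.14, within a list of 16 in which 4 rose and 4 fell.

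Of 27 genes of glycolysis and the hypoxia response 2 rose and 10 fell (or 4 higher with normexp, 4 lower with slide 2), and 5 rose without control array 4. Hk1, a hexokinase, fell by 1.38 (SE 0.19), Pfkl by 0.73 (SE 0.13) and Eno1 by 0.65 (SE 0.11), while Hk2 and Adm, both induced by low oxygen, differed by 0.32 and 0.52 (adjusted p = 0.227 and 0.114). Clock genes gave 7 higher and 1 lower of 16. Nr1d2 and Dbp, both switched on by the Bmal1 dimer, rose by 1.1 ± 0.14 and 1.05 ± 0.23, and Bmal1 read -2.87, -2.52, -2.02 and -2.03 on the bur arrays and -1.59, -0.99, -1.37 and -1.11 on the control arrays, a fall of 1.09 (SE 0.22, adjusted p = 0.0024). Per1 differed by 0.81 ± 0.36 (adjusted p = 0.0776). The labels give no clock time of sampling. Of 10 glucocorticoid-related genes 3 rose, Klf9 by 1.47 ± 0.24, Tsc22d3, also called Gilz, by 1.25 ± 0.27 and Errfi1 by 1.11 ± 0.36, the last not without bur array 3 or 4 or control array 1 or 2 (adjusted p = 0.0577 to 0.0687), and Fkbp5 differed by 0.44 ± 0.25 (adjusted p = 0.159).

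The deepest falls were in genes of blood-forming marrow and of dividing cells. Of 14 erythroid genes 13 fell and 0 rose, with a median of -2.92, and 13 to 14 fell under the other scalings. Alas2, the first enzyme of haem synthesis in red cell precursors, read 3.76, 4.10, 6.02 and 4.07 on bur arrays 1 to 4 and 7.14, 7.47, 7.34 and 7.32 on control arrays 1 to 4. Bur array 3 lay between the other bur arrays and the controls, and the difference was -2.83 ± 0.74 (adjusted p = 0.00952). Klf1, the master factor of the lineage, fell by 2.75 (SE 0.69) and Tfrc, the transferrin receptor, by 2.89 (SE 0.63). Without bur array 3, 14 of 14 fell and the median was -3.41. With the 2 bur arrays of the second treated slide alone, which include bur array 3, 2 fell at a median of -2.29, and with those of the first slide 13 fell at -3.42.

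Of 10 granulocyte precursor genes 9 fell and 0 rose, with a median of -2.20, and 10 fell without bur array 3. Mpo, myeloperoxidase, read -0.31, -1.58, 0.64 and -1.21 on the bur arrays and 2.21, 2.35, 1.98 and 2.05 on the control arrays, a fall of 2.76 (SE 0.44), and Elane, neutrophil elastase, fell by 3.34 (SE 0.60). Both are made in precursors in the marrow and little in circulating neutrophils. Of 9 mature neutrophil genes 2 fell (or 4 lower with quantile normalization or median centring, 5 lower with slide 2), or 6 without bur array 1, and the difference between the lists was not tested. S100a8, an abundant calprotectin chain, read 7.62, 7.04, 8.31 and 7.17 on the bur arrays and 8.08, 8.11, 7.88 and 7.70 on the control arrays, a difference of -0.41 ± 0.30 (adjusted p = 0.264), Cxcr2, the chemokine receptor, differed by -0.66 ± 0.30 (adjusted p = 0.0857), and Slpi by 0.75 ± 0.32 (adjusted p = 0.0695). A further probe kept for S100a8 was called lower. The 2 members that fell were Mmp8, by 2.93 (SE 0.35), and Cd177, by 2.71 (SE 0.41).

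Platelet and megakaryocyte genes fell in 10 of 11 (or 4 lower with slide 2), T and NK cell genes in 8 of 12 (or 3 lower with slide 2), B cell genes in 5 of 11 (or 2 lower with the slide block or slide 2) and mast cell genes in 5 of 9 (or 2 lower with slide 2, 3 lower with the slide block), and 0 members of these lists rose. Itga2b, the platelet integrin, fell by 3.22 (SE 0.54), Cd22, a B cell receptor, by 2.51 (SE 0.48), Rag1, the recombinase of lymphoid precursors, by 2.81 (SE 0.60), Cd3e, of the T cell receptor, by 1.70 (SE 0.42) and Gata2, a factor of stem cells and mast cells, by 2.67 (SE 0.40), with Rag1, Cd3e and Gata2 well above background on 3 of 4 bur arrays. Without bur array 3 the counts were 10, 11, 8 and 5, while the platelet count was 6 without bur array 2. The B cell count was 3 without bur array 2 or control array 3 and 2 without bur array 4, and the mast cell count was 3 without bur array 1, bur array 4 or control array 3 and 2 without bur array 2 or control array 4. Monocyte and macrophage genes divided, with 6 of 14 lower and 1 higher and a median of 0.06. Mrc1 and Cd163, receptors of resident macrophages, fell by 1.56 and 1.04, Ccr2, of inflammatory monocytes, fell by 1.55, and Cd68 and Cx3cr1 differed by 0.25 and 1.02 (adjusted p = 0.278 and 0.0762).

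**Figure D4:**
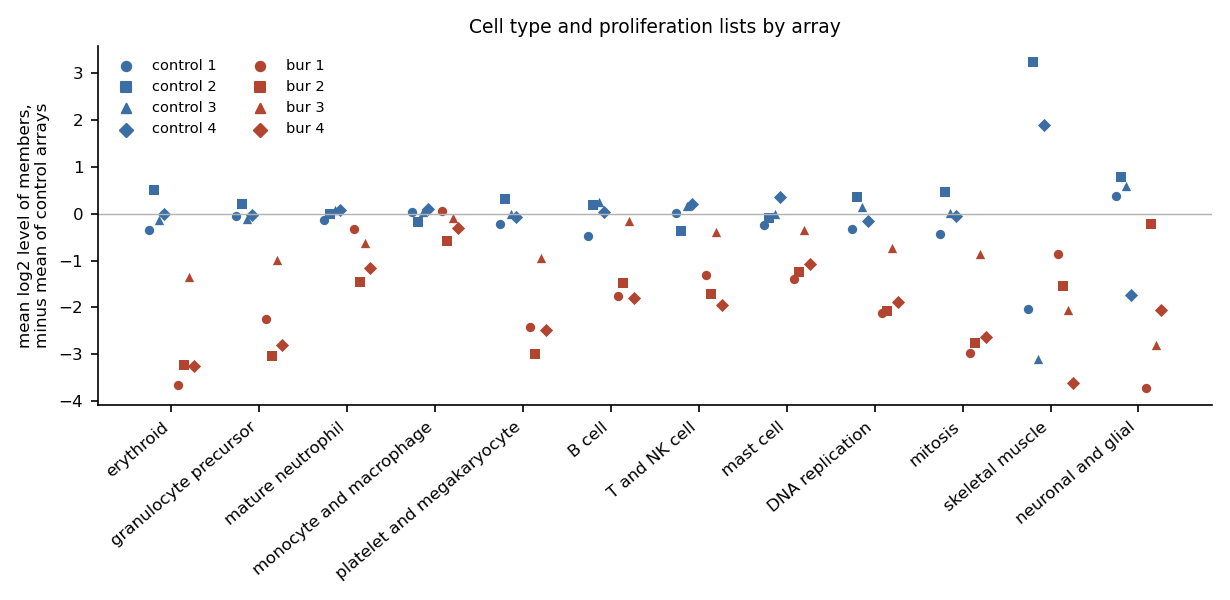
Mean log2 level of the members of 12 lists on each array, minus the mean of the 4 control arrays, with control in blue and bur in red and 1 marker shape per replicate number. Bur array 3 (red triangle) lies between the other bur arrays and the controls for erythroid, platelet, replication and mitosis genes and among the controls for B cell genes, and control arrays 2 and 4 stand high for skeletal muscle genes.

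All 23 measured mitosis genes fell, with a median of -2.36, and all 23 fell under the other scalings. Top2a, the topoisomerase that untangles chromosomes, read -1.26, -1.28, 0.88 and -1.39 on bur arrays 1 to 4 and 2.12, 2.89, 2.53 and 2.58 on control arrays 1 to 4, a fall of 3.29 (SE 0.59, adjusted p = 0.00144). Mki67, the standard marker of cycling cells, fell by 2.74 (SE 0.67), Aurkb, a kinase of chromosome segregation, by 2.86 (SE 0.50), Cenpe, a kinetochore motor, by 2.79 (SE 0.43, well above background on 2 of 4 bur arrays) and Ccnb1, cyclin B1, by 2.11 (SE 0.60). The mean over the mitosis list was -0.95, -0.74, 1.16 and -0.60 on bur arrays 1 to 4 and 1.59, 2.50, 2.04 and 1.97 on control arrays 1 to 4, so bur array 3 stood apart here as it did for the marrow lists. Of 20 DNA replication genes 19 fell, with a median of -1.71. Mcm6, of the replicative helicase, fell by 2.78 (SE 0.36), Gins2 by 1.97 (SE 0.23, well above background on 1 of 4 bur arrays) and Pcna, the polymerase clamp, by 1.11 (SE 0.26). Without bur array 3 the mitosis list still held 23 falls, at a median of -2.87, and the replication list 19. With the 2 bur arrays of the second treated slide alone 5 mitosis genes fell at a median of -1.69 and 9 replication genes at -1.21, and with those of the first slide 23 at -3.01 and 19 at -2.14. The means of the erythroid list, 0.22, 0.64, 2.50 and 0.62 on the bur and 3.51, 4.37, 3.73 and 3.86 on the control arrays, moved with those of the mitosis list, and the part of the marrow lists in the fall of the mitosis genes was not tested.

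Promoters of mitosis genes are known for CCAAT boxes, bound by NF-Y, and for the cell cycle homology region, or CHR, bound by the DREAM and MuvB complexes, and 2 of them are shown because the list moved together. The sequences are from RefSeq on GRCr8, the 250 bases before the start of the gene, and the capitals mark CCAAT or its reverse complement ATTGG and TTTGAA or its reverse complement TTCAAA. Top2a, the member with the largest fall, is at chr10:84473094-84473343 on the minus strand, and Mki67, the first member with the highest number of matches, at chr1:199952594-199952843 on the minus strand.
Top2a: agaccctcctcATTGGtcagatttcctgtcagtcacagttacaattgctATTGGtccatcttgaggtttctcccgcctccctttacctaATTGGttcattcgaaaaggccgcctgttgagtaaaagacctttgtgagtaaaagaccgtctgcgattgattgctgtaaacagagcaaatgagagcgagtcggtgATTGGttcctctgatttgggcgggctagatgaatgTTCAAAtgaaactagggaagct
Mki67: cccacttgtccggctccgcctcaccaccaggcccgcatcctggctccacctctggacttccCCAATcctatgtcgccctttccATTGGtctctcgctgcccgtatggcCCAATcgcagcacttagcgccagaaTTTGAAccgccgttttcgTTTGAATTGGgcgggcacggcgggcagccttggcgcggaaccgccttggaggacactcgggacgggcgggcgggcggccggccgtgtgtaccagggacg
The Top2a promoter holds 4 CCAAT and 1 CHR matches, and that of Mki67 4 and 2, of which 1 of each overlap in the Mki67 promoter. Motifs were counted from 250 bases before to 50 bases after the start. Promoters were found for 18 of the 23 mitosis genes. Of these 14 (77.8%) held CCAAT on either strand and 12 (66.7%) held TTTGAA, against 37.7% and 13% of the 12808 genes tested that had a promoter entry. Both motifs stood in 10 (55.6%) of the 18 and in 5.37% of all. Among genes that rose 36.1% held CCAAT and 13.4% TTTGAA, and among genes that fell 40% and 15.3%. CCAAT also stood in 64.7% of the 17 replication genes and in 62.5% of the 8 osteocyte genes with an entry, and TTTGAA in 5.88% and 12.5%. A match describes these letters only and is not a measured binding site.

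Genes of muscle, nerve and fat cells also differed between arrays. Of 13 skeletal muscle genes 0 fell and 0 rose, although the median was -1.93, and 5 fell without control array 3. The list mean was -0.31, -0.97, -1.49 and -3.04 on the bur arrays and -1.46, 3.80, -2.53 and 2.45 on the control arrays, so control arrays 2 and 4 stood high and control arrays 1 and 3 lay within the range of the bur arrays. Ckm, muscle creatine kinase, read 1.69, 0.71, 0.47 and -2.28 on the bur arrays and -0.22, 4.58, -1.88 and 3.74 on the control arrays (adjusted p = 0.396). Of 14 neuronal and glial genes 9 fell (or 2 lower with slide 1, 4 lower with the slide block), among them Gad1, which makes the transmitter GABA, by 3.57 (SE 1.1). Gad1, well above background on 3 of 4 bur arrays, read -4.73, 0.45, -3.76 and -4.05 on the bur arrays and 1.75, 2.04, -0.34 and -1.24 on the control arrays, high on bur array 2 as on the controls, and its call was lost without bur array 1 or 4 or control array 1 or 2 (adjusted p = 0.0512 to 0.0589). The count was 4 to 5 without bur array 1, 3 or 4 or control array 1, 2 or 3. Of 8 adipocyte genes 7 fell and 0 rose. Plin4 and Cidec were well above background on 1 of 4 bur arrays. Plin4, a lipid droplet protein, fell by 3.55 (SE 0.53), Cidec by 2.70 (SE 0.60) and Adipoq, adiponectin, by 2.28 (SE 0.65), while Lpl differed by -0.16 ± 0.28 (adjusted p = 0.649).

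The 12 largest rises and falls under the naming rule were not confined to these lists. Cyp2w1, a cytochrome P450, read 0.72, -0.25, -1.87 and -1.99 on the bur arrays and -5.25, -6.73, -5.07 and -5.75 on the control arrays, was well above background on 4 bur and 0 control arrays and was at least 15.6-fold higher (adjusted p = 0.000432). Thsd4, which encodes a protein that promotes fibrillin assembly and was well above background on 1 of 4 control arrays, rose by 3.95 ± 0.85, Ugt2a1, a glucuronosyltransferase, by 3.74 ± 0.83, Jaml, a junctional adhesion molecule of leukocytes, by 3.4 ± 0.61 and Pln, phospholamban, by 3.29 ± 0.68. Of the others, Or6b13, Or10ag57 and Vom2r65, receptors of the olfactory and vomeronasal families, C4h12orf60 and Iqcf6 were each on 0 control arrays well above background and were at least 5.88-fold, 4.24-fold, 4.61-fold, 3.8-fold and 9.75-fold higher. With normexp correction Or6b13, Or10ag57 and C4h12orf60 did not pass, at 0.64 (adjusted p = 0.0613), 0.43 (adjusted p = 0.143) and 0.44 (adjusted p = 0.193). Over all genes that rose, 1070 were on 0 control arrays well above background, and of those that fell 46 were on 0 bur arrays. Rab3b and Gpr158, both of neurons, were lower, Rab3b by 3.73 on the log2 scale and Gpr158 at least 3.89-fold. Trip13 and Stil, both needed for cell division, were lower at least 5.53-fold and by 3.89 on the log2 scale. Trim10 and Slc14a1, both of red cells, fell by 3.65 and 3.49, Clca5 by 3.86, Mal2 by 3.59 and Gys2, the liver glycogen synthase, by 3.50. Rab3b, Stil, Clca5, Mal2 and Gys2 were each well above background on 1 of 4 bur arrays.

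Bur-drilled and laser-ablated bone shared slides, and 1 gene of 22935 (0.00436%) differed between them by the limma test, while 1497 genes had an unadjusted p under 0.05. Chance alone would give such a p for a share of about 0.05 of the genes tested, so 1497 cannot be read as that many differences. The 1 gene that passed was Hspa1a, which read 4.53, 4.56, 5.64 and 6.14 on laser arrays 1 to 4, all above the 4 bur values, a difference of -3.87 ± 0.39 for bur minus laser (adjusted p = 0.0174). The difference stayed between -4.10 and -3.29 over all settings tried, but the call was lost without each bur array in turn and without control array 3 or laser array 3, at adjusted p of 0.0545 to 0.121. With slide as a fixed effect, not the random block used against the controls, 10 genes passed. A second probe of Hspa1a, nearer the 5′ end, had a mean of -2.95 on bur, 0.55 on laser and -3.59 on control arrays. It is shown because it gives the same order from another stretch of the transcript, and it lies at chr20:3956838-3956897 of RGSCv3.4 on the plus strand. Hspa1a has a near-identical neighbour, Hspa1b, and the signals of such copies may not be separable.
Hspa1a, base 2300: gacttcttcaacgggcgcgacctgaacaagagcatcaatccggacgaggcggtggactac
Dmp1 read 5.68, 5.71, 6.45 and 6.76 on the laser arrays, and its difference of -1.93 ± 0.25 did not pass (adjusted p = 0.114). It did pass with slide as a fixed effect (adjusted p = 0.0333), with normexp (-1.88, adjusted p = 0.0139) and with an intensity trend (adjusted p = 0.0394). Sost read -3.03, -3.21, -3.47 and -3.50, lower than on each bur array, with a difference of 1.68 ± 0.30 that did not pass either (adjusted p = 0.248). A p above the threshold does not show that the 2 ways of cutting act alike.

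Probes of 1 gene did not always give 1 answer. Of 5412 genes with several probes kept, 260 of those called had a further probe called the other way. The position of the probe on the transcript moved with the group. Over 3235 accessions with probes at different positions, the bur minus control difference at the probe nearest the 3′ end exceeded that at the probe nearest the 5′ end by a median of 0.02 where the probes lay 1 to 60 bases apart, 0.23 at 251 to 500 bases, 0.26 at 501 to 1000 bases, 0.11 at 1001 to 2000 bases and -0.04 beyond. For the 1029 pairs 251 to 1000 bases apart, the level at the 3′ probe minus that at the 5′ probe, centred over the 12 arrays, had a median of 0.02, 0.10, 0.12 and 0.13 on bur arrays 1 to 4 and -0.14, -0.17, -0.15 and -0.20 on control arrays 1 to 4, with no overlap. Laser arrays 1 to 4, on the same slides as the bur arrays, had 0.04, 0.06, 0.06 and 0.12, within the bur range. The shift was thus not particular to bur drilling. This measure was added after probes of single genes had been seen to disagree, and its part in the other results was not tested. The median share of G and C in the probe that stood for a gene was 43.3% for genes that rose, that fell and that were not called. Base content was not looked at by pair of probes or by array.

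**Figure D5:**
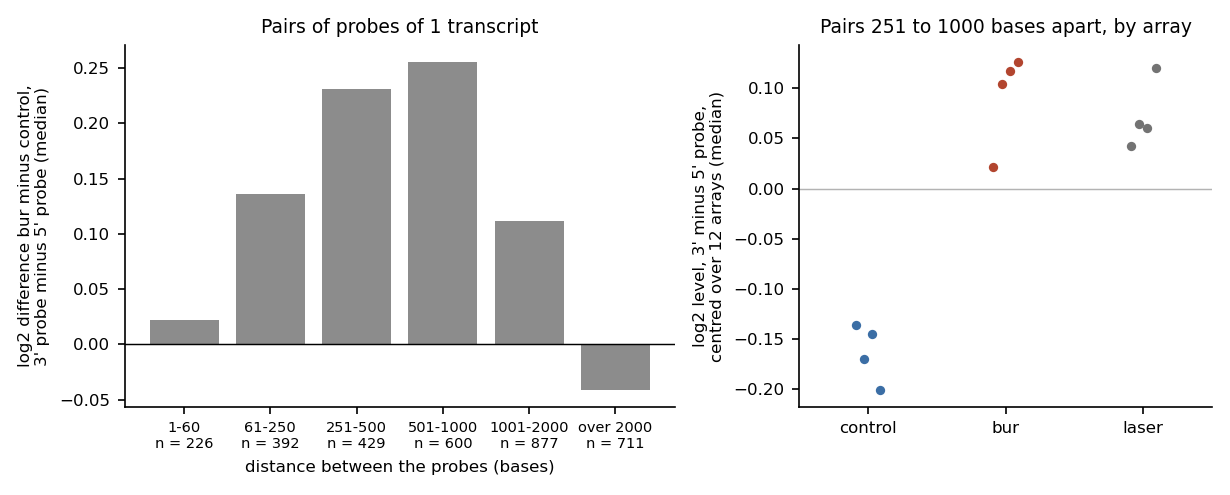
Left, median over pairs of probes of 1 transcript of the bur minus control difference at the 3′ probe minus that at the 5′ probe, on the log2 scale, by the distance between the probes in bases with the number of pairs. Right, for pairs 251 to 1000 bases apart, the median 3′ minus 5′ level on each array, centred over 12 arrays. The 4 control arrays lie between -0.20 and -0.14, the 4 bur arrays between 0.02 and 0.13 and the 4 laser arrays (grey) between 0.04 and 0.12.

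Single genes went both ways, and Slc20a2 and Gapdh were chosen after their values were seen. Slc20a2, a phosphate transporter, gave -0.91 (adjusted p = 0.00837) for the probe at base 2295 of the transcript and 0.95 (adjusted p = 0.0303) for that at base 3478, a call that was lost without bur array 4 or control array 2 or 3 (adjusted p = 0.0706 to 0.0821). Txnrd1, thioredoxin reductase, ran the other way, at 1.79 for base 1472 and -0.92 for base 2409 (adjusted p = 0.000405 and 0.0029). Gapdh, a glycolytic enzyme often used as a reference gene, had 8 probes, of which that at base 181 differed by -0.62, that at base 192 by -0.69, that at base 482 by -1.11 and that at base 1102 by 0.02. Several probes filed under Gapdh overlap but are not the same sequence, so some read near-identical copies and the gene is uncertain. The 5′ probes of these genes are shown to make this visible. Those of Slc20a2 and Txnrd1 lie at chr16:73950192-73950251 and chr7:23065196-23065255 of RGSCv3.4, both on the minus strand, and the capitals in the Gapdh probes mark the 2 letters of the 49-base overlap that differ.
Slc20a2, base 2295: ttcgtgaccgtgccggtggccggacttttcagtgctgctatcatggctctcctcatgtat
Txnrd1, base 1472: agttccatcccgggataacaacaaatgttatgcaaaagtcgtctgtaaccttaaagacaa
Gapdh, base 181: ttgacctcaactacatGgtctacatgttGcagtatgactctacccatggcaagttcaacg
Gapdh, base 192: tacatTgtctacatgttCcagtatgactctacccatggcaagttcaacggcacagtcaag
Hspa8, the constitutive Hsp70, gave 1.14 at base 2039 and -0.47 at base 523, and Igf1r, the receptor of insulin-like growth factor, gave 0.87 at base 11376 and -0.46 at base 3835. Neither gene is given a direction of its own here. The list counts above take the probe with the highest mean and include such genes, so Hspa8 stands among the 6 heat shock genes that rose. A further probe was called against the sign of the gene for 3 of 22 heat shock genes and 4 of 27 genes of glycolysis and the hypoxia response.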

How the data were processed

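Total RNA of 12 rat calvarial samples was hybridised to 12 one-colour 60-mer arrays, whose scanner files the authors deposited. Per the file headers, Agilent Feature Extraction 11.0.1.1 made the processed signal, an intensity corrected for local background and spatial trend but not scaled between arrays, for a design on RGSCv3.4. The authors also deposited log2 values, quantile normalized per the file's name, and comparison tables with log2 fold changes and p-values per probe, with no model named in the labels or headers. These served as an alternative and for the stated Sost value.

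From 62976 spots, 4259 control spots and outlier spots were left out and spots of 1 probe were averaged. Levels are log2 processed signals minus the 75th percentile of each array, which assumes that this percentile is alike on all arrays. Probes well above background on at least 4 of 12 arrays were kept, and the probe with the highest mean stood for a gene. Names come from the files, and 21184 probes (46.46%) were named through RefSeq accessions. All 12 arrays entered 1 limma fit (lmFit and eBayes, limma 3.58.1, R 4.3.3) with Benjamini-Hochberg adjustment at 0.05, and the script was tested on simulated data. Bounds for genes not above background on any array of a group set the brighter mean against a raised mean of that group. Each array of the group below its own lowest signal that counted as above background was raised to that signal.

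The 60 gene lists (871 of 914 symbols measured), the samples and the tests were chosen with earlier results of these data known, so counts are descriptions and no list was tested. Genes named are Sost, the 12 largest rises and falls that passed without overlap of the arrays or contrary probes, members marked as key, and per list the 3 smallest adjusted p and both extremes. Some genes the rule gives are not reported here. Some others were chosen after their values were seen, as are a few members named for a count or role. Alternatives covered scaling, background, filter, probe rule, slide, replicate block, variance model, minimum difference and each array left out. The number of arrays limits the precision. The RefSeq promoters are on GRCr8, the array coordinates on RGSCv3.4, and the 2 were not mixed.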

Additional observations from a re-analysis of the deposited data

Results flagged for a closer look

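For 48 of the 570 groups of 4 arrays looked at (8.42%), 1 array stood further from the others than Dixon's 95% critical value allows, where chance gives about 1 in 20. The groups are the bur and the control arrays of each gene named and of 3 lists, and they share arrays. Each value is the log2 level on that array, followed by the range of the 3 others.

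Bur array 3 stood apart most often, for 17 genes and for the mean of the mitosis list (1.16 against -0.95 to -0.60). It read high for the red cell genes Alas2 (6.02 against 3.76 to 4.10), Klf1 (0.77 against -1.27 to -1.04) and Trim10 (-0.84 against -3.06 to -2.90), and for the genes of dividing cells Aurkb (-2.03 against -3.91 to -3.65), Ccnb1 (0.81 against -1.39 to -1.06), Mcm6 (-0.85 against -2.24 to -2.15), Pcna (3.87 against 2.81 to 2.96) and Top2a (0.88 against -1.39 to -1.26). All 4 control arrays lay above bur array 3 for 6 of these 8 red cell and cell division genes, while for Ccnb1 and Pcna bur array 3 was just above the lowest control array. Its levels were also high for C3 (3.22 against 1.94 to 2.06), Cd68 (3.44 against 2.56 to 2.70), Ctsk (6.61 against 6.18 to 6.22), Cxcl12 (5.70 against 3.86 to 3.90), Itgb3 (-0.49 against -2.01 to -1.86) and Lef1 (-0.68 against -2.43 to -2.18). It read low for Csf2 (-5.36 against -3.79 to -3.51), Cxcl1 (2.29 against 3.04 to 3.09) and Dusp16 (-0.28 against 0.11 to 0.16). Values without it stand beside the lists in the report.

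Bur array 1 read high for Col1a1 (10.57 against 9.73 to 9.75), Dlx3 (8.40 against 5.32 to 5.81), Jaml (4.87 against 2.06 to 2.45) and Plaur (1.95 against 0.38 to 0.59) and low for Egfr (1.20 against 1.54 to 1.61) and Hey2 (-5.26 against -4.25 to -4.16). Bur array 2 read low for Hspa5 (4.32 against 4.75 to 4.77), Nfatc1 (2.87 against 3.21 to 3.25), Plin4 (-6.74 against -4.92 to -4.66) and Rpl27 (3.96 against 4.06 to 4.07). Bur array 4 read high for Amotl2 (3.48 against 3.09 to 3.14), Hspa8 (8.66 against 8.50 to 8.52), Lum (3.87 against 2.99 to 3.12), Psmb7 (1.72 against 1.49 to 1.53) and Slc20a2 (4.50 against 3.80 to 3.88) and low for Nr4a1 (0.92 against 1.31 to 1.38). Control array 1 read high for Bglap (9.64 against 9.22 to 9.26), C4h12orf60 (-5.48 against -6.91 to -6.81), Cx3cr1 (2.04 against 0.79 to 0.96), Fgfr3 (1.08 against 0.27 to 0.36) and Trpm8 (-2.78 against -4.44 to -4.19). Control array 2 read high for Gata2 (-1.34 against -1.84 to -1.77) and Ptgs1 (2.32 against 2.00 to 2.06) and low for Col4a2 (-2.24 against -1.62 to -1.52), Ibsp (4.26 against 4.57 to 4.62), Lifr (-0.84 against -0.39 to -0.33), Mt2A (6.73 against 7.59 to 7.75) and Nrp2 (3.19 against 3.54 to 3.56). Control array 3 read low for Igfbp2 (2.45 against 4.69 to 5.11). Control array 4 read high for Il33 (1.01 against 0.23 to 0.32).

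Hspa1a, the inducible Hsp70, differed between the 2 ways of cutting, at -3.87 on the log2 scale for bur minus laser, by limma's test of that difference itself.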

How the results depend on the processing

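The count of 11706 genes stayed within 1.5 times under the alternatives tried, except that it was 7352 with the bur arrays of the second treated slide alone and 165 when a log2 difference of at least 1 was tested for. It ran from 9555 to 11849 as each array was left out in turn, and at most 14 genes were called in the other direction under any of the settings tried. Between bur and laser, 1 gene became 5 with normexp, 2 with an intensity trend and 10 with slide as a fixed effect. It became 0 with the mean of the probes of a gene, with only the 2 groups fitted and with the minimum difference of 1. The count was 0 to 1 as arrays were left out. The causes were not tested.

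Sost kept its direction, but its 0.88 did not pass with only the 2 groups fitted, with slide as a block or against the minimum difference (adjusted p = 0.0608, 0.0771 and 1), nor at 0.80 with the percentile over bright probes, 0.70 with median centring, 0.36 with normexp or 0.65 with the second treated slide alone. It ran from 0.59 to 1.07 as arrays were left out. Csf2 (-0.024), Epgn (-0.029) and Hey2 (-0.051) turned sign with normexp, and Gapdh did so in the deposited table (-0.76) and with the mean of its probes (-0.56), which draw on other probes. Of 282 genes named, 18 lost their call with normexp, 14 with quantile normalization, 25 with slide as a random block, 42 with the second treated slide alone and 3 to 20 without 1 bur or control array.

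With the replicate number as a block 12895 genes passed, of which 11476 were among the 11706, and Sost passed at an adjusted p of 0.00616. The deviations of bur and control arrays of the same number correlated at 0.264, 0.0955, 0.0968 and 0.197, where all bur-control pairs ranged from -0.234 to 0.264. The numbers were not taken as pairs, and these values do not settle whether they are. Signal over background limits dim genes most: 1070 genes that rose had 0 control arrays well above background.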

Other observations

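Genes of keratinocytes, the cells of the outer skin, were higher in bur-drilled bone in 5 of 8 and lower in 1, against 32.7% and 18.3% of all genes. Krt14, a keratin of basal keratinocytes, read -2.60, -3.04, -3.19 and -3.45 on bur arrays 1 to 4 and -4.15, -4.42, -4.43 and -5.19 on control arrays 1 to 4, a rise of 1.48 ± 0.27 with 3 of 4 control arrays well above background. Its partner Krt5 was at least 2.33-fold and Krt15 at least 2.73-fold higher, both with 0 control arrays well above background. Krt1, of the upper skin layers, fell by 1.35 (SE 0.30) with 1 of 4 bur arrays well above background, so the list did not move as one. These levels were among the dim ones, and with normexp correction 2 members rose and Krt5, Krt14 and Krt15 differed by 0.02, 0.14 and 0.19.

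Lists of large housekeeping complexes had medians of 0.03 to 0.38, and their split depended on the scaling. Of 45 cytosolic ribosomal proteins 26 rose and 1 fell, with a median of 0.38 beside 0.23 for all genes. Rpl14, Rpl27 and Rps23 rose by 1.07 ± 0.20, 1.05 ± 0.14 and 1.04 ± 0.12, though the deposited table gave 0.06 for Rpl14. Rps2 fell by 0.41 (SE 0.14), a call lost without bur array 1 or 2 or control array 2, 3 or 4. The ribosomal counts were 4 higher and 8 lower with quantile normalization, 6 and 13 in the deposited table and 30 and 0 with normexp correction, so the list has no settled direction. Of 31 proteasome subunits 6 rose and 7 fell, and with quantile normalization 1 rose and 12 fell. Psma2, of the core particle, rose by 0.56 ± 0.14, or 0.38 without passing under median centring. Psmb7, a catalytic subunit, and Psmd14, the deubiquitinase of the lid, fell by 0.74 (SE 0.15) and 0.96 (SE 0.11). Of 28 respiratory chain subunits 7 rose and 7 fell, and 4 and 13 did with quantile normalization. Ndufa1, of complex I, rose by 1.22 ± 0.16, while Atp5f1b, of the ATP synthase, and Uqcrc2, of complex III, fell by 1.30 (SE 0.17) and 0.67 (SE 0.14).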
